A study of Mus musculus with 5 samples.

Results

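Fgf21, Pdk4, Angptl4, Creb3l3 and Vldlr are genes that the nuclear receptor PPARalpha activates in liver and that are also raised by fasting. They were chosen by name, 5 of the 13966 genes in the deposited table, and each was found there. Fgf21 and Pdk4 were picked because their values were already known to lie lower with bezafibrate, so the differences between bezafibrate and control libraries are given here as descriptions. Hepatocytes had been sorted from livers of ICR mice, an outbred stock, according to a fluorescent readout of their fatty acid oxidation activity. The bezafibrate groups were the negative, positive and high gates, and the control groups the positive and negative gates, with 1 library in each of the 5 groups. Bezafibrate is a lipid-lowering drug that activates peroxisome proliferator-activated receptors. All groups share the strain and the sorting readout, and the labels name no genotype. The sources used here do not give age, sex, dose, length of treatment, feeding state, the number of mice per library or whether 1 liver supplied several gates. Treatment and mouse can therefore not be told apart, and no difference below has a check between replicate mice.

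In fasting, fatty acids released from adipose tissue reach the liver and activate PPARalpha, which turns on genes of fat burning and of hormones that carry the fasting signal. Fgf21 encodes a hormone secreted by hepatocytes that acts through fibroblast growth factor receptors together with beta-klotho, encoded by Klb. Pdk4 encodes a mitochondrial kinase that switches off pyruvate dehydrogenase and so spares carbohydrate. Angptl4 encodes a secreted inhibitor of lipoprotein lipase. Creb3l3 encodes CREBH, a liver transcription factor held in the endoplasmic reticulum membrane and freed by proteolysis, which acts with PPARalpha on Fgf21. Vldlr encodes the very low density lipoprotein receptor, which takes up triglyceride-rich particles.

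Recovered depth was 7146578, 5993366 and 6831281 reads in the bezafibrate negative, positive and high libraries, against 5056884 in control positive and 5454866 in control negative. Hepatocyte markers were abundant, with all 8 found and sums of 71458 to 99949.5 normalised read counts in bezafibrate and 42740.4 to 44419 in control libraries. Most of that sum was Alb, at 48208.5 to 72188 in bezafibrate and 23064 to 24303 in control, while Hnf4a (638 to 695 and 1008 to 1032) and Tat (1811 to 1843 and 2099 to 2178) were lower in bezafibrate. Markers of other cells were low. Sums were 2.93 to 6.80 in bezafibrate and 3.70 to 7.11 in control for Kupffer cells (4 of 8 markers found), and 17.6 to 31.2 and 16.6 to 24.6 for endothelium (7 of 8). They were 30.6 to 39.2 and 102 to 111 for stellate cells (7 of 8, mostly Reln), and 6.46 to 13.1 and 2.80 to 7.39 for cholangiocytes (4 of 6). Erythroid markers reached 33.1 to 45.5 in bezafibrate and 24.1 to 25.3 in control, nearly all from Alas2. Neutrophil markers stayed at or below 1.58, adipocyte markers at or below 1.42, and 0 of 7 lymphocyte markers were found. In such bulk libraries fewer cells of a type and less RNA per cell cannot be told apart. Rn45s, the ribosomal RNA precursor gene, held 10.5%, 18.5% and 13.5% of reads in bezafibrate negative, positive and high, against 34.8% in control positive and 36.3% in control negative. Its part in the differences below was not tested.

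The stretches just before the start sites of Fgf21 and Pdk4 are shown because these genes had the lowest bezafibrate to control ratios among the members. Each holds 250 bases on the minus strand, from RefSeq on GRCm38.p6, which shares its coordinates with mm10. Fgf21 lies at chr7:45615491-45615740 and Pdk4 at chr6:5496279-5496528. Capitals mark matches, on either strand, to the motifs AGGTCA (a nuclear receptor site), its direct repeat spaced by 1 base (DR1, the site of PPARalpha with its partner), TGACGTCA (cAMP response element), TGATGCAAT (amino acid response element), and the E-box CACGTG. Capitals likewise mark the forkhead motif, GTAAACA, if it is present, and the core promoter element known as the TATA box, with the letters TATAAA.
Fgf21: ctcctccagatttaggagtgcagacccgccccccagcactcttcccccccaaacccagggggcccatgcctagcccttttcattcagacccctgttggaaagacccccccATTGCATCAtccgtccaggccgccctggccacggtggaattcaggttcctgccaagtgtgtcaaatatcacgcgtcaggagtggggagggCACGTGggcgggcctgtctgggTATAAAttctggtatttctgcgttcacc
Pdk4: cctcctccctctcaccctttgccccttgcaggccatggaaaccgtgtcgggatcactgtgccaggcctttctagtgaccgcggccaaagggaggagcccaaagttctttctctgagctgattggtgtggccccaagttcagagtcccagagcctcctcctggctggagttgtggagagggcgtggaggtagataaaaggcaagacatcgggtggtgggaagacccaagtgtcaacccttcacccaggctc

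In the Fgf21 window the amino acid response element, the sequence read by ATF4, lies on the opposite strand from 140 to 132 bases before the start. The E-box lies from 50 to 45 bases and the TATA box from 28 to 23 bases before it. The amino acid response element occurs in 0.167% of 32851 RefSeq promoter windows of the same length, the E-box in 6.02% and the TATA box in 12.4%. DR1 occurs in 0.0335% and was in 0 of the members' windows. In the Pdk4 window 0 of these motifs matched. GENCODE places the start of Pdk4 further upstream than RefSeq, within this window. Promoter sequences were matched for 4 of the 5 members, with Angptl4 unmatched. Among the other windows, 1 of the Creb3l3 windows held AGGTCA, which occurs in 14.0% of windows, and the Vldlr windows held 0 of the motifs. A match is a description of letters, not a binding site.

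Fgf21 (ENSMUSG00000030827.5, chromosome 7, 45613886 to 45615490) was at 2.93 normalised read counts in the bezafibrate negative library, 4.57 in positive and 4.66 in high, against 12.1 in control positive and 11.5 in control negative. The bezafibrate libraries were all below the control libraries, with the negative gate lowest. These values rest on 22, 29 and 35 reads in bezafibrate negative, positive and high, against 56 reads in each control library. The ratio of bezafibrate to control was 0.255 in the negative gate (95% Clopper-Pearson counting interval 0.148 to 0.424) and 0.379 in the positive gate (0.233 to 0.603). The ratio in the positive gate over that in the negative gate was 1.48, with an approximate Wald counting interval of 0.762 to 2.89, so a difference between gates was not detectable at this depth. Counting intervals do not cover differences between mice.

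Fgf21 was the member with the widest range, 4.12-fold between its highest and lowest library. On the log2(value + pseudocount) scale its difference was -1.67 in the negative gate, at percentile 0.869 of the genes analysed. In the positive gate it was -1.23, at percentile 1.37. The pseudocount was 1.0035 normalised read count, which understates differences of low genes such as Fgf21. All 3 bezafibrate values lay under the filter of 5.02 on the mean of the 5 libraries, as did the negative and positive values of Pdk4, so both genes entered the set of genes analysed through their other libraries.

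Pdk4 (ENSMUSG00000019577.6, chromosome 6, 5483351 to 5496309) had 3.87, 4.89 and 6.40 in bezafibrate negative, positive and high, against 10.99 in control positive and 8.62 in control negative. Groups of libraries did not overlap, and bezafibrate high came nearest to control. Reads numbered 29, 31 and 48 in bezafibrate negative, positive and high, against 51 in control positive and 42 in control negative. The ratio was 0.448 in the negative gate (0.269 to 0.737) and 0.444 in the positive gate (0.275 to 0.708). On the log scale that was -0.98 and -1.03, on either side of the 2-fold line. Bezafibrate high was 1.65-fold bezafibrate negative (1.02 to 2.72), the only gate ratio among the members whose counting interval left out 1. In that pair of gates 1 of 5 members had such an interval, and in each other pair 0 of 5. No allowance was made for the number of intervals.

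**Figure D1:**
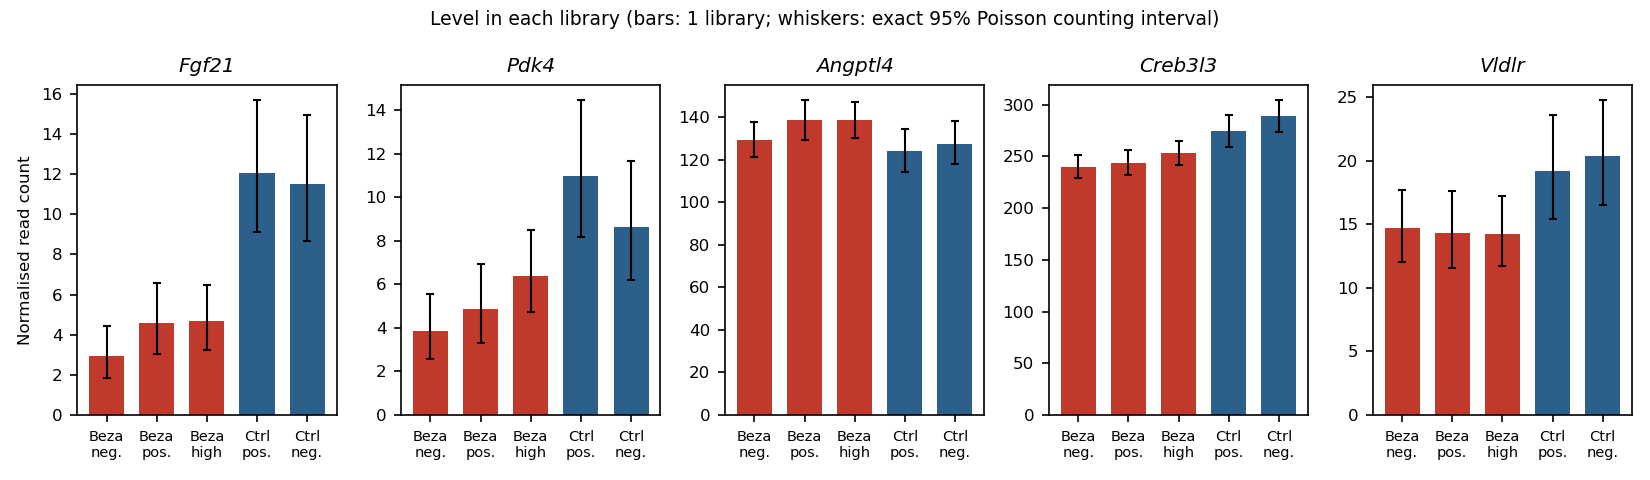
Normalised read count (y axis, from 0) of each gene in the 5 libraries, bezafibrate in red and control in blue, with exact 95% Poisson counting intervals. Fgf21 and Pdk4 are lower in the 3 bezafibrate bars than in both control bars, while Angptl4 stays between 124 and 138.

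Angptl4 (ENSMUSG00000002289.16, chromosome 17, 33773750 to 33781830) had nearly level values, at 129 in bezafibrate negative and 138 in both bezafibrate positive and high, against 124 in control positive and 127 in control negative. The bezafibrate values were all above the control values as deposited, by a small margin. Its 575 to 1039 reads per library gave narrow intervals. The ratio was 1.01 in the negative gate (0.914 to 1.12) and 1.12 in the positive gate (1.004 to 1.24), so a 2-fold difference lay outside both intervals. The sign in the negative gate turned with the scaling, to -0.24 on the log2 scale when libraries were scaled by their totals without Rn45s. It was -0.07 without the 100 highest genes, -0.0024 with median-of-ratios factors and 0.25 when scaled by column totals.

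Creb3l3 (ENSMUSG00000035041.8, chromosome 10, 81084324 to 81098874) was the most abundant member. It had 239.7, 244 and 253 in bezafibrate negative, positive and high, against 274 in control positive and 289 in control negative. The groups did not overlap, but the gap was small. The ratio was 0.830 in the negative gate (0.773 to 0.890) and 0.888 in the positive gate (0.824 to 0.958). Scaled by column totals, the ratio was 0.975 in the negative gate and 1.03 in the positive gate, where the direction was reversed, and the libraries overlapped.

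Vldlr (ENSMUSG00000024924.14, chromosome 19, 27216484 to 27254231) had 14.7 in bezafibrate negative and 14.3 in both bezafibrate positive and high, against 19.2 in control positive and 20.3 in control negative. The 3 bezafibrate values were close together and all below control. With 89 to 110 reads per library, the ratio was 0.721 in the negative gate (0.545 to 0.956) and 0.748 in the positive gate (0.552 to 1.01). It was below 1 under every scaling tried, between 0.603 and 0.848 in the negative gate and between 0.690 and 0.863 in the positive gate.

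Counted together, 1 of the 5 members (Fgf21) was at least 2-fold lower in the negative gate on the log2(value + pseudocount) scale, against 5.86% of the 8973 genes analysed. In the positive gate 2 of 5 (Fgf21 and Pdk4) were, against 2.91%. In both gates 1 of 5 (Fgf21) was, against 2.13%. Members at least 2-fold higher numbered 0, against 10.2% of genes in the negative gate, 4.94% in the positive gate and 3.95% in both. All 5 members passed the filter. Since Fgf21 and Pdk4 were chosen for this difference, nothing is read from these counts. All bezafibrate values of 4 members lay below both control values, as for 33.8% of genes, and those of Angptl4 above them, as for 35.7%. A non-overlap of this kind was thus common in these libraries. The median difference of the members was -0.45 in the negative gate and -0.40 in the positive gate, beside 0.025 and 0.0041 over all genes analysed. Each of these member medians is the value of Vldlr. With Fgf21 and Pdk4 chosen as lower, nothing is read from the medians either. Creb3l3 was at -0.27 and -0.17, and Angptl4 at 0.017 and 0.16.

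**Figure D2:**
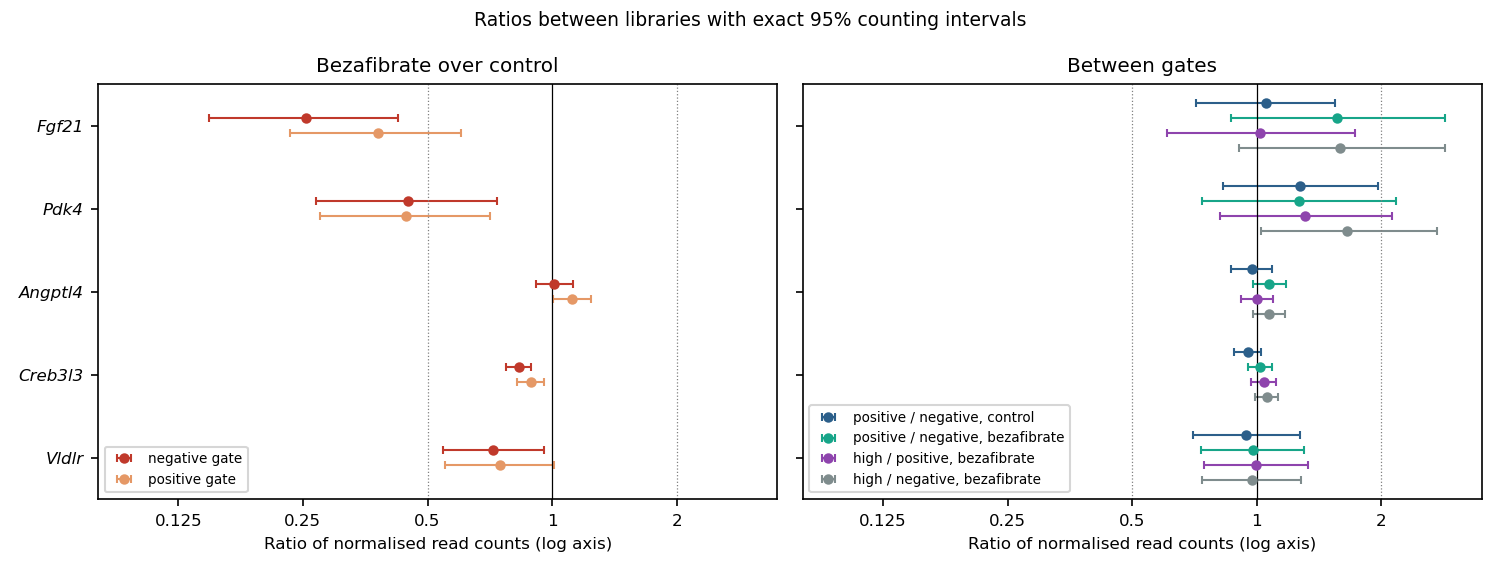
Ratio of normalised read counts for each gene (log axis) with exact 95% counting intervals, for bezafibrate over control in 2 gates (left) and for 4 ratios between gates (right). Dotted lines mark 2-fold. On the left Fgf21 and Pdk4 lie below 0.5, while on the right all ratios lie between 0.944 and 1.65.

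Between gates of 1 treatment the members differed by less than 2-fold. Between the control gates 0 of 5 members were 2-fold apart, against 0.334% of genes, with positive to negative ratios of 1.05 for Fgf21 (0.712 to 1.55), 1.27 for Pdk4 (0.831 to 1.97), 0.972 for Angptl4 (0.866 to 1.09), 0.95 for Creb3l3 (0.880 to 1.03) and 0.944 for Vldlr (0.701 to 1.27). Between the bezafibrate gates 0 of 5 were 2-fold apart from positive to negative (0.256% of genes), from high to positive (0.145%) or from high to negative (0.267%). Fgf21 was 1.56-fold in bezafibrate positive over negative (0.865 to 2.85) and 1.59-fold in bezafibrate high over negative (0.907 to 2.85). For Angptl4 and Creb3l3, which had the most reads, the intervals of all bezafibrate gate ratios lay between 0.914 and 1.18. Pdk4 was 1.26-fold in bezafibrate positive over negative (0.737 to 2.17) and, as given above, 1.65-fold in bezafibrate high over negative (1.02 to 2.72), at percentile 98.7 of the genes analysed. Fgf21 in the same pair was at percentile 97.6.

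Levels of different genes were compared per kilobase of the longest GENCODE transcript. Creb3l3 was highest, at 104 to 110.4 normalised read counts per kilobase in bezafibrate and 119.6 to 126 in control libraries. Angptl4 followed, at 39.0 to 41.8 and 37.5 to 38.5. Fgf21 came next, at 3.08 to 4.90 in bezafibrate and 12.1 to 12.7 in control libraries. Pdk4 had 1.11 to 1.84 in bezafibrate and 2.48 to 3.16 in control, and Vldlr 1.79 to 1.84 and 2.41 to 2.55. The ranges of these last neighbours met or overlapped in both treatments. In the control libraries the level of Fgf21 per kilobase was thus above those of Pdk4 and Vldlr, and by counts alone the order was different. The lengths are those of the annotation, and the transcript each gene uses here was not measured.

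The difference between bezafibrate and control varied with the annotated transcript length. In the negative gate the median log2 difference was 0.39 in the shortest of 5 equal length classes, which holds Fgf21, 0.098 in the next, which holds Creb3l3, and -0.0013 in the middle class, which holds Pdk4 and Angptl4. It was -0.14 in the longest class, which holds Vldlr. Fgf21, at -1.67, thus ran against its length class, while Vldlr, at -0.45, lay on the same side as its own. In the positive gate the corresponding medians were 0.25, 0.042, -0.012 and -0.095.

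In the list results that follow, pairs of ratios or medians give the negative gate and then the positive gate. Of all genes analysed, 10.2% and 4.94% were at least 2-fold higher in these gates, and 5.86% and 2.91% lower. The listed fibroblast growth factor receptors and Klb differed in opposite directions. Fgfr4, the main fibroblast growth factor receptor of hepatocytes, had 59.9, 61.6 and 55.2 in bezafibrate negative, positive and high, against 100.7 in control positive and 108.6 in control negative. The ratio of bezafibrate to control was 0.551 (0.485 to 0.626) in the negative gate and 0.612 (0.534 to 0.702) in the positive gate. Klb, the co-receptor, had 59.1, 52.0 and 58.4 in bezafibrate negative, positive and high, against 42.0 in control positive and 41.7 in control negative. Its ratios were 1.42 (1.20 to 1.68) in the negative and 1.24 (1.03 to 1.48) in the positive gate. Fgfr2 had ratios of 1.74 and 1.998. Of the 5 receptor genes listed 4 were analysed, and Fgfr1 did not pass the filter, so its level is not described. At least 2-fold higher or lower in either gate were 0, with medians of -0.07 and -0.16.

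Of 13 listed genes around pyruvate dehydrogenase, the complex that Pdk4 switches off, 11 were analysed, 4 were at least 2-fold higher in the negative gate and 2 in the positive gate, and 0 were lower. All 11 lay above 0 in both gates as deposited, though counting intervals of some included 1, such as Pdhb, a subunit of the complex named after its values were seen, at 1.07 (0.898 to 1.27) and 1.09 (0.918 to 1.30). Their median difference was 0.89 and 0.64, beside 0.025 and 0.0041 for all genes. Pdk2, another kinase of the complex, had 111.3, 86.8 and 90.2 in bezafibrate negative, positive and high, against 46.6 in control positive and 42.5 in control negative, with ratios of 2.62 (2.25 to 3.06) and 1.87 (1.59 to 2.19). Pdk1 had a ratio of 2.08 (1.60 to 2.74) in the negative gate and of 1.11 (0.854 to 1.44) in the positive gate. Mpc1, a subunit of the mitochondrial pyruvate carrier, had ratios of 4.99 (3.65 to 6.97) and 2.37 (1.76 to 3.23). Dld, the dihydrolipoamide dehydrogenase, had 2.66 and 2.13 and was named after its values were seen, as it completes the count. Pdp2, a phosphatase that switches the complex on, had 1.14 (0.990 to 1.32) and 1.17 (1.01 to 1.36).

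Of 13 listed genes of lipoprotein lipase regulation, the process in which Angptl4 acts, 11 were analysed, and 3 were at least 2-fold higher in the negative gate and 2 in the positive gate, with 0 lower. Median differences were 0.76 and 0.46. Lpl, the lipase itself, had ratios of 3.43 (3.09 to 3.83) and 2.61 (2.33 to 2.93). Angptl8, listed under its older symbol Gm6484, had 0.805 (0.687 to 0.945) in the negative and 1.35 (1.14 to 1.59) in the positive gate. Apoa5, an activator of the lipase, had 0.807 and 0.891, and Furin, a protease that cleaves angiopoietin-like proteins, 1.10 and 0.959. Apoc3, at least 2-fold higher in the negative gate and named after its values were seen, had 2.10 and 1.57.

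Among relatives of Creb3l3 and the proteases that free it, 6 of 8 listed genes were analysed, with 0 past 2-fold in the negative gate and 1, higher, in the positive gate. The medians were -0.19 and -0.25. The gene past 2-fold, Mbtps2, the site-2 protease, had ratios of 1.43 (0.870 to 2.43) and 2.39 (1.32 to 4.59) on few reads. Mbtps1, the site-1 protease, had 0.776 and 0.827, and Atf6, a sensor of the same membrane, 1.37 and 1.10. Of 10 genes linked to CREBH 9 were analysed. In both gates 4 were at least 2-fold higher, and 1 (G6pc) was lower in the negative gate. The list was split, with 5 genes above and 4 below 0 in each gate, and its medians of 0.93 and 0.87 were the values of a single gene, Apoc2. Apoa4, an apolipoprotein named after its values were seen, had ratios of 0.692 (0.638 to 0.751) and 0.730 (0.662 to 0.805), and Pck1, of gluconeogenesis, 0.806 and 0.880. The 4 higher genes were Hamp, Hamp2, Apcs and Crp, which encode the iron hormone hepcidin and its close copy and a pair of pentraxins. Hamp2 had ratios of 7.88 and 5.28, though reads of Hamp and Hamp2 cannot be assigned with certainty, and Apcs 5.69 and 4.28. Hamp and Crp were named after their values were seen, with ratios of 5.59 and 4.83 and of 2.78 and 2.30.

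Of the receptor family of Vldlr and its handling, 9 of 13 listed genes were analysed and 0 were at least 2-fold higher or lower in either gate, with medians of -0.07 and -0.10. Lrp1, a large receptor of the family, had 1.01 and 0.935, Lrp5 0.815 and 0.864, and their ligand Apoe 0.954 and 0.911.

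The transcription factors of fasting were mixed. Ppara, which encodes PPARalpha, had 608.6, 657.9 and 655.8 in bezafibrate negative, positive and high, against 289.3 in control positive and 284.4 in control negative, with ratios of 2.14 (2.02 to 2.27) and 2.27 (2.14 to 2.42). Of 14 factors, all analysed, it was the 1 at least 2-fold higher in each gate, and Cebpb the 1 at least 2-fold lower, in the negative gate, with ratios of 0.476 (0.441 to 0.513) and 0.752 (0.696 to 0.811). The medians were -0.27 and -0.25. Hnf4a, a factor of hepatocyte identity, had 0.618 and 0.680. Ppargc1a, a co-activator of fasting genes named after its values were seen, had 0.563 and 0.583.

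Genes that glucagon and glucocorticoids raise in fasting included several that lay lower, the direction for which Fgf21 and Pdk4 were chosen. Of 16, all analysed, 4 were at least 2-fold lower in each gate, against 5.86% and 2.91% of all genes analysed, and 0 were higher. The list was split in the positive gate, with 7 genes above and 9 below 0, against 1 above and 15 below in the negative gate. The medians were -0.34 and -0.15, beside 0.025 and 0.0041 for all genes. Irs2, an insulin receptor substrate, had 97.8, 109.1 and 111.4 in bezafibrate negative, positive and high, against 359.4 in control positive and 346.6 in control negative, with ratios of 0.282 (0.259 to 0.308) and 0.304 (0.277 to 0.332). Lpin1, a phosphatidate phosphatase that also co-activates PPARalpha, had 0.264 (0.255 to 0.273) and 0.342 (0.331 to 0.354). G6pc, glucose-6-phosphatase, had 0.479 and 0.503. Pck1, the entry enzyme of gluconeogenesis, had 0.806 and 0.880, and Tat 0.846 and 0.863. Igfbp1, with 0.406 and 0.400, and Cdkn1a, with 0.514 and 0.468, complete the counts and were named after their values were seen.

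Genes of the fed state, which insulin raises, had medians of 0.39 and 0.078. Of 12, all analysed, 2 were at least 2-fold higher in the negative gate and 3 in the positive gate, with 0 lower. Of all genes analysed, 10.2% and 4.94% were 2-fold higher. The list was split in the positive gate, with 6 genes above and 6 below 0, against 9 above and 3 below in the negative gate. Scd1, a fatty acid desaturase, had 6374, 4677 and 4880 in bezafibrate negative, positive and high, against 1969 in control positive and 1624 in control negative. Its ratios were 3.93 (3.83 to 4.02) and 2.37 (2.32 to 2.43), and those of Pnpla3 were 2.58 (1.93 to 3.48) and 2.88 (2.17 to 3.87). Mlxipl, which encodes the glucose sensor ChREBP, had 0.704 and 0.865. Scd1 is also raised by PPARalpha agonists in mouse liver, so the lists are not separate by function.

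ATF4 targets, the genes of the amino acid response element shown above for Fgf21, were mixed too. Of 14 listed genes 9 were analysed, with medians of -0.57 and -0.43. In each gate 1 was at least 2-fold higher and 1 lower. Trib3, a pseudokinase, had ratios of 2.68 (1.99 to 3.67) and 3.16 (2.33 to 4.34), and Ddit3, a stress transcription factor, 0.325 (0.227 to 0.459) and 0.390 (0.269 to 0.560). Atf5 had 0.694 and 0.629. Gdf15, a stress hormone, had 0.632 and 0.777.

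Fgf21 and Pdk4 were chosen for lying lower. Most PPARalpha targets of fat oxidation lay above 0, with 16 of 18 above and 2 below in each gate. Of 18, all analysed, 10 were at least 2-fold higher in the negative gate and 6 in the positive gate, with 0 lower and medians of 1.21 and 0.64. Ehhadh, of peroxisomal beta-oxidation, had 1813, 1268 and 1535 in bezafibrate negative, positive and high, against 87.5 in control positive and 72.9 in control negative. Its ratios were 24.9 (22.4 to 27.7) and 14.5 (13.1 to 16.0). The exceptions, named after their values were seen, were Acaa1a, a peroxisomal thiolase, at 0.722 (0.647 to 0.807) and 0.987 (0.886 to 1.10), and Pex11a, of peroxisome division, at 0.861 (0.645 to 1.15) and 0.957 (0.729 to 1.26). Cyp4a10 and Cyp4a14, fatty acid hydroxylases, had ratios of 13.5 and 7.98 and of 7.43 and 5.27, though as close relatives they may share reads. Of 19 other PPARalpha targets 15 were analysed, of which 5 passed 2-fold upward in the negative gate and 4 in the positive gate, with 0 and 1 downward and medians of 0.32 and 0.20. Retsat, retinol saturase, had ratios of 11.4 and 8.27. Fabp1, a fatty acid binding protein, had ratios of 3.18 and 2.30 and Slc27a2, a fatty acid transporter, 1.25 and 1.38. Cd36, a fatty acid receptor, had 27.9 (7.50 to 234) and 4.75 (1.998 to 13.7). Both control libraries held few reads of it, with values of 0.41 in negative and 1.29 in positive. The gene lower in the positive gate was G0s2, an inhibitor of triglyceride lipase named after its values were seen, with ratios of 0.471 (0.300 to 0.733) and 0.415 (0.244 to 0.694).

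**Figure D3:**
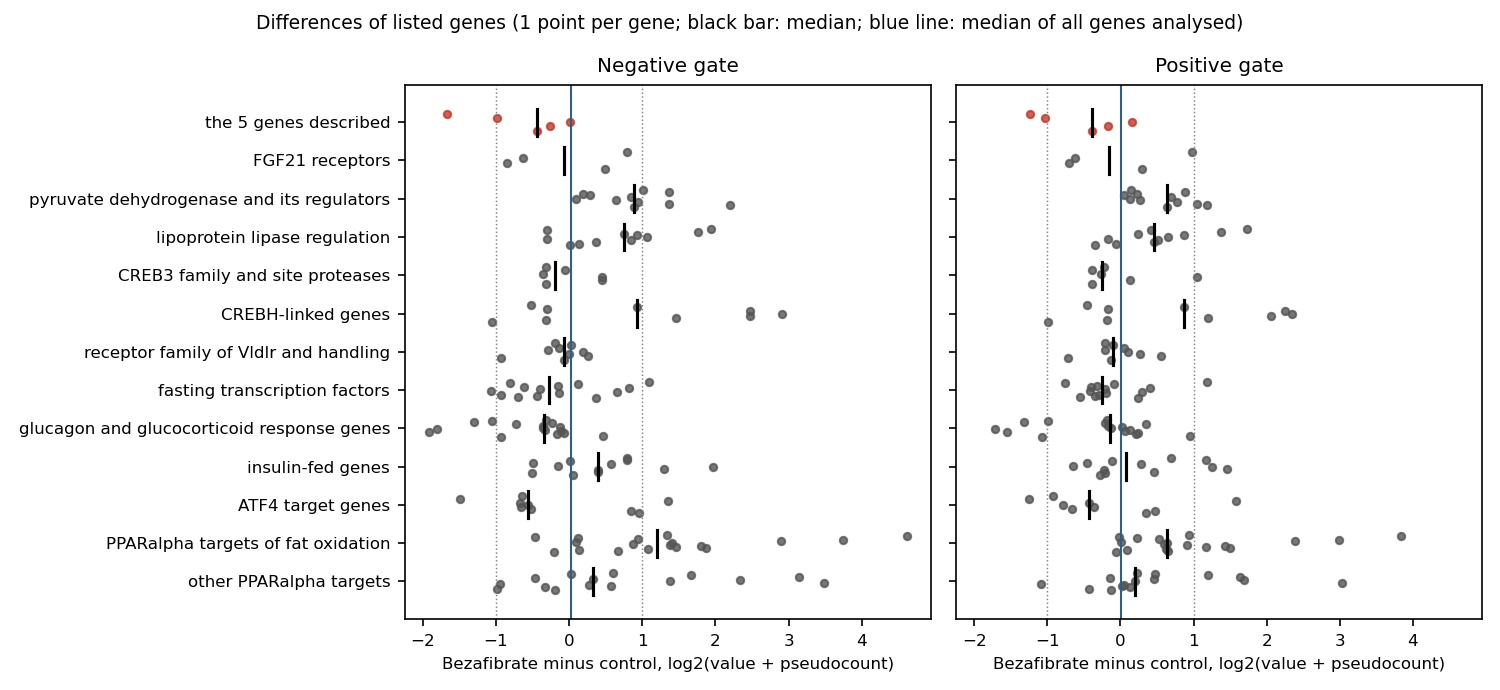
Bezafibrate minus control on the log2(value + pseudocount) scale in the negative gate (left) and the positive gate (right), with 1 point per gene, a black bar at each list's median, a blue line at the median of all genes analysed and dotted lines at 2-fold. The 5 genes described (red) span -1.67 to 0.017 in the negative gate, while the list of fat oxidation targets has a median of 1.21 there.

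Between the bezafibrate gates 0 genes of the glucagon and glucocorticoid list and 0 of the fat oxidation list were 2-fold apart. In positive over negative, 14 of 16 glucagon and glucocorticoid genes were above 0, with a median difference of 0.18, while 14 of 18 fat oxidation targets were below 0, with a median of -0.34, beside -0.012 for all genes. Medians of the CREBH-linked, lipoprotein lipase and pyruvate dehydrogenase lists were also negative, at -0.34, -0.33 and -0.28. In the control pair the glucagon and glucocorticoid list was at -0.01 and the fat oxidation list at 0.09. The difference between lists was not tested. Without Rn45s in the totals the medians of the glucagon and glucocorticoid list, the fat oxidation list and all genes were 0.32, -0.20 and 0.13 in the bezafibrate pair. Fgf21 was at 0.50, Pdk4 at 0.27, Angptl4 at 0.10, Creb3l3 at 0.025 and Vldlr at -0.030 on the same scale. The negative library thus held the lowest value of Fgf21, Pdk4, Angptl4 and Creb3l3 among the bezafibrate gates and the highest of Ehhadh. Rn45s held 18.5% of reads in the positive and 10.5% in the negative library of this pair, and its part was not tested.

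The genes with the nearest profile to each member were taken as those with the smallest root mean square distance between log2 profiles over the 5 libraries, each centred on its own mean, among 8549 genes. Nearest to Fgf21 were Chka, choline kinase alpha, at a distance of 0.058, the non-coding RNA Particl at 0.069 and Cep44 at 0.073, where the median gene was at 0.715. Chka had 110.8, 153.7 and 147.5 in bezafibrate negative, positive and high, against 333 in control positive and 347 in control negative. As for Fgf21, the bezafibrate negative library was lowest and both control libraries highest. The order of the other gates differed, with bezafibrate positive above high and control negative above positive for Chka.

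Nearest to Pdk4 were Taf8 at 0.055, Pdilt at 0.059 and Sntg1 at 0.068. For Angptl4 they included Capn7 and Cebpa, both at 0.017, and for Creb3l3 Pcnx, Zfp687 and Commd4, at 0.016 to 0.021. Nearest to Vldlr was Cry1, a clock repressor, at 0.015, with 6.53, 6.46 and 6.26 in bezafibrate negative, positive and high, against 8.84 in control positive and 9.44 in control negative, followed by Marf1 and Lama3 at 0.021. Among the members, the profile of Pdk4 ranked at 329 of 8548 genes by distance from Fgf21, at 0.28, and that of Angptl4 at 4506. With 5 libraries and 1 per group, the distances are descriptions, and why profiles lie close was not tested.

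Some of the smaller differences changed sign with the scaling of the libraries. The median of all genes in bezafibrate over control moved by 0.22 in the negative and 0.20 in the positive gate on the log2 scale when libraries were scaled by column totals, and by -0.24 and -0.11 when scaled by totals without Rn45s. Genes past 2-fold in the negative gate numbered 1444 higher and 267 lower with column totals, and 543 and 1050 without Rn45s, against 919 and 526 as deposited. In the positive gate they numbered 820 and 131 with column totals, and 332 and 364 without Rn45s, against 443 and 261. Of the 5 scalings tried, that with edgeR's TMM factors repeated the deposited values, so it was no separate check. Fgf21 stayed at least 2-fold lower under each scaling. It lay between -1.87 and -1.47 in the negative gate and between -1.33 and -1.05 in the positive gate. Pdk4 ranged between -1.20 and -0.78 and between -1.13 and -0.84, below 0 throughout and on both sides of the 2-fold line. Angptl4 and Creb3l3 changed sign between scalings, as given above, and Vldlr did not. Among the lists, the median turned positive with column totals for the FGF21 receptors and the receptor family of Vldlr in both gates, at 0.16 and 0.04 and at 0.17 and 0.11. It did so for the CREB3 family in the negative gate (0.04) and for the glucagon and glucocorticoid genes in the positive gate (0.06). For the insulin-fed genes it was -0.04 in the positive gate without Rn45s. In the other lists it kept its sign in both gates under the 5 scalings.

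**Figure D4:**
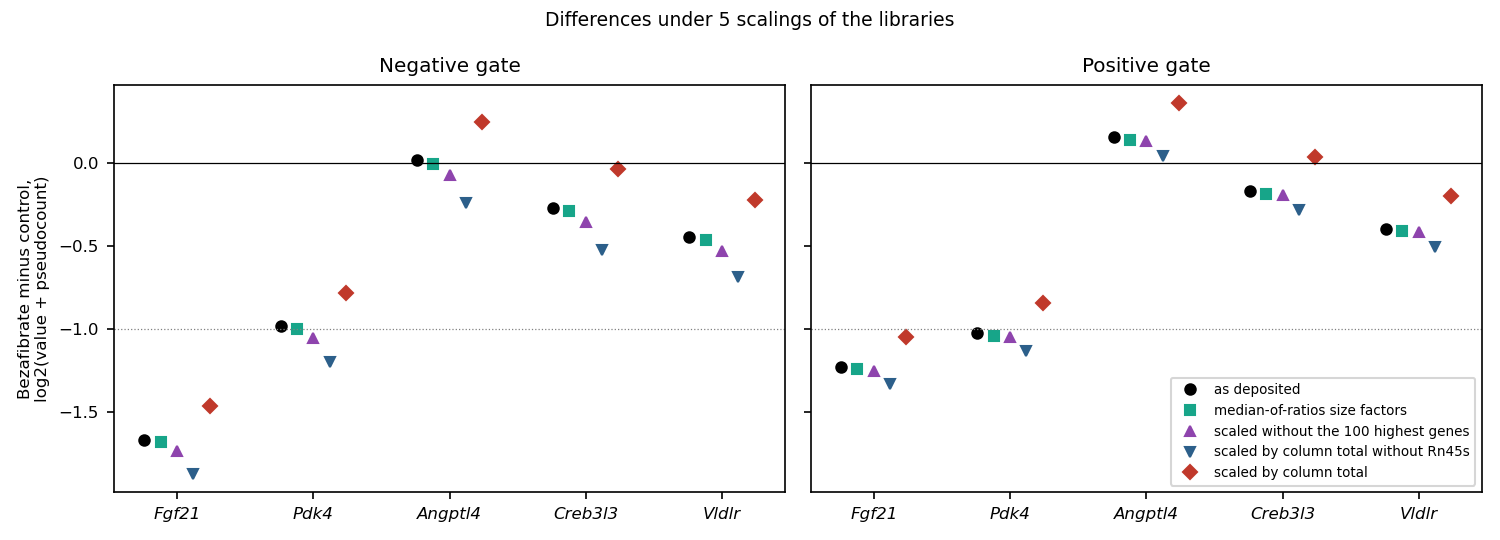
Bezafibrate minus control on the log2(value + pseudocount) scale for each gene under 5 scalings, the deposited one among them. The negative gate is on the left and the positive gate on the right, with dotted lines at 2-fold lower. Fgf21 lies below -1 in every case, while the markers of Angptl4 in the negative gate fall on both sides of 0.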

How the data were processed

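Sorted mouse hepatocytes gave 5 libraries, and the authors deposited their signal, as normalised read counts, for 13966 genes. The submitters' processing notes name mm10, edgeR, RSEM, Bowtie2 and Trimmomatic 0.36, without roles. An annotation, and whether strand was used in counting, are not stated there. Per the labels' protocols, the RNA kit was one made for FFPE material, and RNA was depleted of ribosomal RNA and made into directional libraries read from both ends. Every value (100%) was a whole multiple of its column's value of 1 read (tolerance 0.001 reads). That step matched the one of TMM-scaled CPM recomputed from the recovered reads, within 0.001%. No molecular identifiers are described, so intervals cover counting error only.

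Genes were analysed when their mean reached 5.02 (5 pseudocounts), 8973 in all. Differences are of log2(value + 1.0035). Ratios divide the deposited normalised values, and their 95% intervals are exact (Clopper-Pearson) on the recovered reads. A gene was called at 2-fold or more on that scale. Steps were tested on simulated data. Python 3.11.15, numpy 2.4.6, pandas 2.3.3, scipy 1.17.1, R 4.3.3 and edgeR 4.0.16 were used. Coordinates and lengths came from GENCODE for GRCm38 (95.8% of symbols matched) and promoters from RefSeq; 0 genes of that annotation overlapped a member.

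The members, the 12 pathway lists, which share some genes, and the 9 marker lists were chosen with earlier results of these data known. Named genes were the members, the 2 most abundant and the 2 most extreme analysed genes of each list (by the difference in the negative gate), named partners of members and the 3 nearest profiles per member; others are said to be named after their values were seen. Some genes of this rule are not reported here. Alternatives were 5 scalings, pseudocounts of 0.25 and 5 times the main one, and filters at 1 and 20 pseudocounts and none. Among the scalings, TMM factors repeat the deposited one.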

Additional observations from a re-analysis of the deposited data

Results flagged for a closer look

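None of the 5 members was picked out by differing directions between gates or treatments. Among the listed genes, several whose counting intervals lay on opposite sides of 1 in the 2 gates or in the 2 treatments are given here, and the difference itself was not tested. For bezafibrate over control, Sds had a ratio of 0.602 in the negative and 1.27 in the positive gate, Txnip 0.792 and 1.10, Mt2 0.887 and 1.16, Me1 1.32 and 0.852, and Angptl8 (Gm6484) 0.805 and 1.35.

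For the positive over the negative gate, with the bezafibrate pair first and the control pair second, Sds had 1.45 and 0.688, Cebpb 1.34 and 0.850, Mt2 1.15 and 0.882, and Angptl8 1.39 and 0.831. The other genes ran the opposite way. Pdk1 had 0.748 and 1.40, Scd1 0.734 and 1.21, Shmt2 0.786 and 1.19, Ehhadh 0.699 and 1.20, and Cyp4a14 0.792 and 1.12. Fabp1 had 0.785 and 1.08, Vnn3 0.661 and 1.57, and Aldh3a2 0.878 and 1.30. Rn45s held 18.5% of reads in bezafibrate positive against 10.5% in bezafibrate negative, and 34.8% in control positive against 36.3% in control negative, and its part in these ratios was not tested.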

How the results depend on the processing

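No paired analysis was possible because each group has 1 library, so that no replicate numbers pair samples across groups. Treatment was compared within gates. The cause of each change below was not tested. Pseudocounts and filters are given as multiples of the main pseudocount. Of 210 recomputed differences of members, 199 stayed inside the counting interval, 11 left it, 14 changed sign and 0 of those past 2-fold did. The 210 include the differences with TMM factors, which repeat the deposited ones and so could not move. Members at least 2-fold lower in the negative gate numbered 2, against 1 as deposited, without Rn45s, with median-of-ratios factors, without the 100 highest genes and with a pseudocount of 0.25. In the positive gate they numbered 1 with column totals and 0 with a pseudocount of 5, against 2. Members with all bezafibrate values above control numbered 0, against 1, under those same 3 scalings (without Rn45s, median-of-ratios, without the 100 highest genes).

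Counts over all genes moved more. A change of filter also changes which genes are counted, 13966 without a filter against 8973 at the main one. With column totals, higher and lower genes numbered 1444 and 267 in the negative gate, 820 and 131 in the positive gate, and 660 and 99 in both, with 1706 genes below control in all bezafibrate libraries. Without Rn45s there were 543 and 1050 in the negative gate and 309 lower in both. With a pseudocount of 5, 317 were lower in the negative gate, 273 higher and 138 lower in the positive gate, and 235 and 112 in both. Without a filter, 809 were lower in the negative gate, and 665 higher and 421 lower in the positive gate. With a filter at 20 there were 574 and 300, 273 and 132, and 111 lower in both, with 1905 genes below and 1940 above control in all bezafibrate libraries. Between gates, in the order control positive over negative, bezafibrate positive over negative, high over positive and high over negative, genes 2-fold apart numbered 3, 14, 8 and 9 with a pseudocount of 5, 232, 92, 133 and 133 without a filter, 150, 73, 94 and 102 with a filter at 1, and 3, 8, 4 and 7 with a filter at 20. With a pseudocount of 0.25 they were 53 between the control gates, 20 for high over positive and 41 for high over negative.

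Chosen after seeing the data, edgeR's quasi-likelihood test used the recovered reads of the negative and positive gates, with gate and treatment as additive terms. It called 2162 genes higher (24.1%) and 1944 lower (21.7%) after Benjamini-Hochberg adjustment at 0.05, with no fold threshold. The 354 and 191 genes past 2-fold in both gates rest on another criterion, so these counts are not alike. Among those the test called lower were Vldlr and, chosen for that direction and so no evidence of it, Fgf21 and Pdk4. Its error term is the interaction of gate and treatment, not the spread between replicate mice. Depth limits Fgf21 and Pdk4, with 22 to 56 reads per library.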
